A study of Mus musculus with 4 samples.

Results

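The genes described here are the translation initiation and elongation factors of MC38 cells, a mouse colon carcinoma line. They were taken as every gene symbol that begins with Eif or Eef followed by a digit, the Eif4ebp genes included, without the kinases Eif2ak2 and Eif2ak3 and without pseudogene symbols ending in -ps. This gave 62 of the 24346 symbols listed. Polyadenylated RNA was sequenced in 2 libraries labelled Arid5a knockout (KO), described as Arid5a-deficient MC38 cells, and in 2 labelled wild-type (WT) MC38 cells. No treatment or time point is labelled, and the comparison asks which transcripts differ between the groups. How Arid5a was disrupted, and whether the KO cells are 1 clone, is not given in the sources used here. Nothing labelled says that the 2 libraries of a group came from separate cultures, so p-values measure the spread between these libraries only, which may be technical. KPC cells, also named in the series design, were not analysed here.

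Translation begins when the ternary complex of eIF2, GTP and initiator tRNA joins the small ribosomal subunit together with eIF1, eIF1A, eIF3 and eIF5. The cap-binding complex eIF4F, made of eIF4E, the scaffold eIF4G and the helicase eIF4A, brings this preinitiation complex to the mRNA, which is scanned to the start codon. The supply of eIF2 is limited by its exchange factor eIF2B and by kinases that phosphorylate its alpha subunit, and the supply of eIF4E by the eIF4E-binding proteins, which mTORC1 switches off. Elongation is driven by eEF1A, which delivers aminoacyl-tRNA, its exchange complex eEF1B, and eEF2, which moves the ribosome along.

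Levels are FPKM, fragments scaled by library depth and transcript length, so they can be compared between genes. Depth, estimated from the lowest values, was about 9800000 and 10800000 fragments in the libraries labelled KO and 14600000 and 11200000 in the WT-labelled ones. Arid5a, the targeted gene, went against the labels. It was at 2.16 and 1.77 FPKM in the KO-labelled libraries, against 0.225 and 0.124 FPKM in the WT-labelled ones. The log2 change of FPKM + 1 was 1.33 ± 0.13 (limma SE, adjusted p = 0.0013), and the ratio of the group means, KO over WT, was 11.3. These levels stand for about 8 to 117 and 8 to 105 fragments in the KO-labelled libraries, depending on transcript length. In the WT-labelled ones they stand for about 1 to 18 and 1 to 8. Which exons of Arid5a the fragments came from cannot be read from values per gene. Every direction below therefore refers to the labels and not to a loss of Arid5a. Of 10 epithelial and intestinal markers, none reached a mean of 1 FPKM and 3 (Epcam, Cdx2 and Lgr5) were at 0 in all libraries, so the defining markers of the tissue of origin were absent or near 0. All 5 mesenchymal markers reached that level, and they summed to 1270 and 1280 FPKM in the libraries labelled KO and to 1580 and 1550 FPKM in the WT-labelled ones. Of 7 leukocyte markers, 2 (Cd68 and S100a8) averaged 1 FPKM or more, Cd3e and Itgam were at 0 in every library, and the list summed to 2.14 and 1.84 FPKM in the libraries labelled KO against 7.97 and 10.5 FPKM in the WT-labelled ones. The 3 endothelial markers summed to 0.832 and 0.904 FPKM in the libraries labelled KO and to 0.537 and 0.450 FPKM in the WT-labelled ones. In such bulk libraries fewer cells of a type and less RNA per cell cannot be told apart, and the part of these differences in the results below was not tested.

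The called factors were higher and lower in about equal numbers, and most changes were small. The largest rise outside the eIF3j pair was that of Eif2s2, the beta subunit of eIF2, and the largest fall among members at 5 FPKM or more was that of Eif3g, a subunit of eIF3. Of the 62 members, 59 averaged 1 FPKM or more across all 4 libraries and were tested with limma on log2(FPKM + 1). With Benjamini-Hochberg adjustment over all genes tested, 33 of them (55.9%) passed the threshold of 0.05, which is what a call means below. In the libraries labelled KO, 16 of the 33 were higher and 17 lower. Among all 10827 genes tested, 47.6% were called, 24.4% higher and 23.3% lower, so the members' share lay near the background. Abundant genes were called more often: of all genes averaging 100 FPKM or more 66.3% were called, and of the 33 members at that level 22 were. The median log2 change was 0.035 over the members tested and 0.0056 over all genes tested, and the median absolute change was 0.19 and 0.18. Both libraries of 1 group lay outside the range of the other for 49 of the 59 members, against 77.5% of all genes tested.

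The split depends in part on scaling. With values rescaled to a common sum without small RNA symbols, 14 members were higher and 23 lower, and the share of higher calls among all genes called was 36.5% instead of 51.2%. With a common sum of all symbols, 14 were higher and 22 lower, and Eif1, Eif3h, Eif4e2, Eif4a1 and Eif5a were called lower in addition. Under each of the 16 alternative settings that bear on every member, 22 of the 33 calls were made in the same direction, 11 higher and 11 lower. They are Eef1a1, Eef1b2, Eef1g, Eef2, Eif1ax, Eif2b5, Eif2s2, Eif3a, Eif3c, Eif4ebp1 and Eif4g1 on the higher side. On the lower side they are Eif1ad, Eif2b1, Eif2b4, Eif3d, Eif3e, Eif3g, Eif3i, Eif3k, Eif3l, Eif4a2 and Eif4e. Only 4 members had an absolute log2 change of at least 0.5, namely Eif2s2, Eif3g, Eif3j1 and Eif4e3, where 12.5% of all genes tested did.

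**Figure D1:**
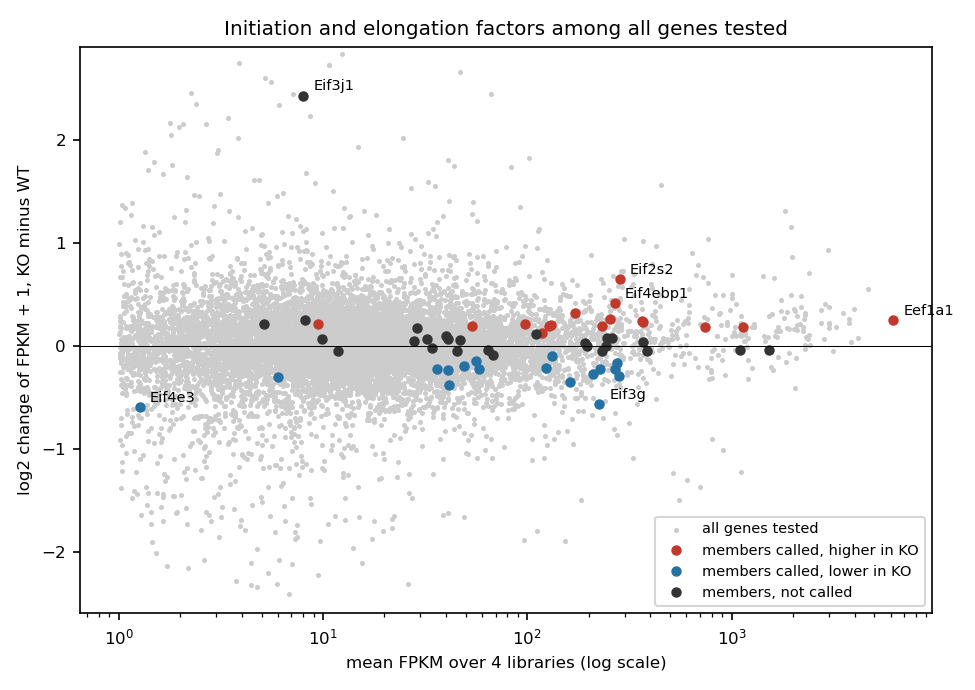
Log2 change of FPKM + 1 (KO minus WT, vertical axis) against mean FPKM over 4 libraries (log scale, horizontal axis) for all genes tested (grey) and the members (coloured by call). The members lie mostly above 10 FPKM and close to zero, with Eif3j1 and Eif2s2 highest and Eif4e3 and Eif3g lowest, and 43 of the genes tested lie outside the vertical axis.

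Upstream windows are printed for Eif2s2 and Eif3g, which had the largest rise and fall among members at 5 FPKM or more outside the eIF3j pair. Those of the translocation factor Eef2, called higher, and the cap-binding factor Eif4e, called lower, are printed as examples that carry an E-box. The windows run from 250 bases before to 20 bases after the RefSeq start of the gene (GRCm38.p6), at chr2:154892887-154893156 (minus strand) for Eif2s2, chr9:20898571-20898840 (minus strand) for Eif3g, chr10:81176381-81176650 (plus strand) for Eef2 and chr3:138527018-138527287 (plus strand) for 1 of the 2 windows of Eif4e. For Eif4e the window with more E-boxes was taken. Capitals mark matches, on either strand, to CACGTG (the E-box bound by MYC and MAX), TGACGTCA (the cyclic AMP response element) or TGATGNAA (the composite element bound by ATF4 with C/EBP factors).
Eif2s2: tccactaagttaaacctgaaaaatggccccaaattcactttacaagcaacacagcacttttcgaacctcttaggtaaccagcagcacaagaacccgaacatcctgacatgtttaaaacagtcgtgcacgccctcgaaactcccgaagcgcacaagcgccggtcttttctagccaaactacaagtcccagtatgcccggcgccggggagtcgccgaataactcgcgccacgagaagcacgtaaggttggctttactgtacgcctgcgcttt
Eif3g: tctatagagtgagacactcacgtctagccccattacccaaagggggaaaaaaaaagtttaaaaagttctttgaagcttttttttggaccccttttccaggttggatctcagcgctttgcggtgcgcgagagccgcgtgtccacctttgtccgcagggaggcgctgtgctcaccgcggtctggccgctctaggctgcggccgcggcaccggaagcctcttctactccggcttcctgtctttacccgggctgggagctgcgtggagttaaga
Eef2: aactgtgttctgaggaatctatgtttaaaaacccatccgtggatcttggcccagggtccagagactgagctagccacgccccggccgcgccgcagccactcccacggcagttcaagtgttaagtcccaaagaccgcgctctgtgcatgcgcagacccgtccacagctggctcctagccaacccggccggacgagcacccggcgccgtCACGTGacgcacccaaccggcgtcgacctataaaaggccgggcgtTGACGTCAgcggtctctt
Eif4e: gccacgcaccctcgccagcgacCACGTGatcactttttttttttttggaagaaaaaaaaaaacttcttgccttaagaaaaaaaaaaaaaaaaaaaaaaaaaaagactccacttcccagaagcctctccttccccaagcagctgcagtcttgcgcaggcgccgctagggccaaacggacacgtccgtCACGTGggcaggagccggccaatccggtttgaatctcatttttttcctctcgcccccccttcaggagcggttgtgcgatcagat
In these letters Eif2s2 and Eif3g hold none of the 3 motifs. Eef2 holds an E-box at -43 and the cyclic AMP response element at 3, counted in bases from the start, and the 2 E-boxes of Eif4e lie at -228 and -64. RefSeq windows of 250 bases before and 50 after a start were found for 48 of the 62 members. Of these, 12 (25.0%) held CACGTG, against 8.09% of all 27025 genes with a window, and of the 12 genes 4 were called higher, 2 lower and 6 were not called. The 27025 include genes too low to be tested here, and the share among the 10827 genes tested was not taken. A gene counted as holding a motif if any of its windows did. Genes differ in their number of windows, which was not taken into account. TGACGTCA was found in 1 member (2.08%, against 2.03% of all genes), and TGATGNAA in 2, Eif2s3x and Eef2k (4.17%, against 4.51%). Eif4ebp1, Eef1g and Eef1d were among the 14 members without a window and were not searched for any of the 3 motifs.

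Among the subunits of eIF2, alpha and beta were higher in the libraries labelled KO and gamma did not pass the test. Eif2s2, the beta subunit, which binds eIF5 and eIF2B, was at 353 and 340.3 FPKM in the KO-labelled libraries, against 223 and 219 FPKM in the WT-labelled ones. Both libraries labelled KO lay far above both labelled WT. Its log2 change was 0.65 ± 0.03 (limma SE; adjusted p = 0.000182), and Eif2s2 lies on chromosome 2, 154871410 to 154892935, minus strand (GRCm38). Eif2s1, the alpha subunit that stress kinases phosphorylate, was at 104 and 104 FPKM in the KO-labelled libraries, against 90.6 and 89.5 FPKM in the WT-labelled ones. It was higher in both libraries labelled KO, with a log2 change of 0.21 ± 0.028 (limma SE; adjusted p = 0.00351), a call lost after subtraction of the median of chromosome 12. Eif2s3x, the X-linked gamma subunit that binds GTP and the initiator tRNA, was at 191 and 196 FPKM in the KO-labelled libraries, against 190.0 and 192 FPKM in the WT-labelled ones, and these overlap (log2 change 0.022 ± 0.027, adjusted p = 0.534 by limma). The Y-linked copy, Eif2s3y, was listed at 0 in all 4 libraries. A processed pseudogene is 99.5% identical to an Eif2s2 transcript over 992 bases. Another is 100% identical to an Eif2s3x transcript over 1350 bases, so reads of both genes may be shared.

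The ratio of Eif2s2 to Eif2s3x FPKM was 1.85 and 1.73 in the KO-labelled libraries, against 1.17 and 1.14 in the WT-labelled ones. That of Eif2s1 to Eif2s3x was 0.544 and 0.530 in the KO-labelled libraries, against 0.477 and 0.467 in the WT-labelled ones. Eif2s2 thus stood further above Eif2s3x in the libraries labelled KO, and Eif2s1 less far below it. With 2 libraries a group an exact two-sided permutation test of a ratio cannot go below p = 0.333, so ratios are given as values only. Eif2a and Eif2d, which can bring initiator tRNA to the ribosome without eIF2, were not called, with log2 changes of 0.059 ± 0.041 and -0.056 ± 0.053 (SE).

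The 5 subunits of eIF2B, which reloads eIF2 with GTP, went in different directions. Eif2b5, the catalytic epsilon subunit, was called higher, at 56.8 and 57.3 FPKM in the KO-labelled libraries, against 50.1 and 49.8 FPKM in the WT-labelled ones (log2 change 0.19 ± 0.031, limma SE; adjusted p = 0.00667). The other catalytic subcomplex member, gamma (Eif2b3), was at 39.0 and 35.8 FPKM in the KO-labelled libraries, against 44.8 and 43.4 FPKM in the WT-labelled ones. Here the libraries labelled KO were the lower ones, with a log2 change of -0.23 ± 0.051 (limma SE; adjusted p = 0.0163), but the call was lost without WT replicate 1 (adjusted p = 0.0872) or WT replicate 2 (adjusted p = 0.0588). The regulatory subunits alpha (Eif2b1) and delta (Eif2b4) were lower too, with log2 changes of -0.20 ± 0.033 and -0.23 ± 0.038 (SE; limma, adjusted p = 0.00672 and 0.00673), and beta (Eif2b2) was not called (0.091 ± 0.062). Across the 5 subunit genes the coefficient of variation of FPKM was 20.6% and 22.5% in the KO-labelled libraries, against 13.1% and 15.03% in the WT-labelled ones. Eif2b4 overlaps Snx17 on the opposite strand, over 204 identical bases of annotated transcript, and the authors' handling of strand is not given in the sources used here.

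Of the 2 eIF2 kinases in the rule, Eif2ak4 (GCN2, which senses uncharged tRNA) was at 10.3 and 10.0 FPKM in the KO-labelled libraries, against 8.35 and 8.93 FPKM in the WT-labelled ones, a log2 change of 0.21 ± 0.06 (limma SE; adjusted p = 0.0351). That call was lost when any 1 library was left out and in 9 of 16 alternatives altogether (adjusted p of 0.0624 to 0.838), and its sign turned when the median of chromosome 2 was subtracted (-0.017). Eif2ak1 (HRI, which senses heme) was at 41.3 and 42.0 FPKM in the KO-labelled libraries, against 39.8 and 39.9 FPKM in the WT-labelled ones, and was not called (0.061 ± 0.033; adjusted p = 0.189).

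**Figure D2:**
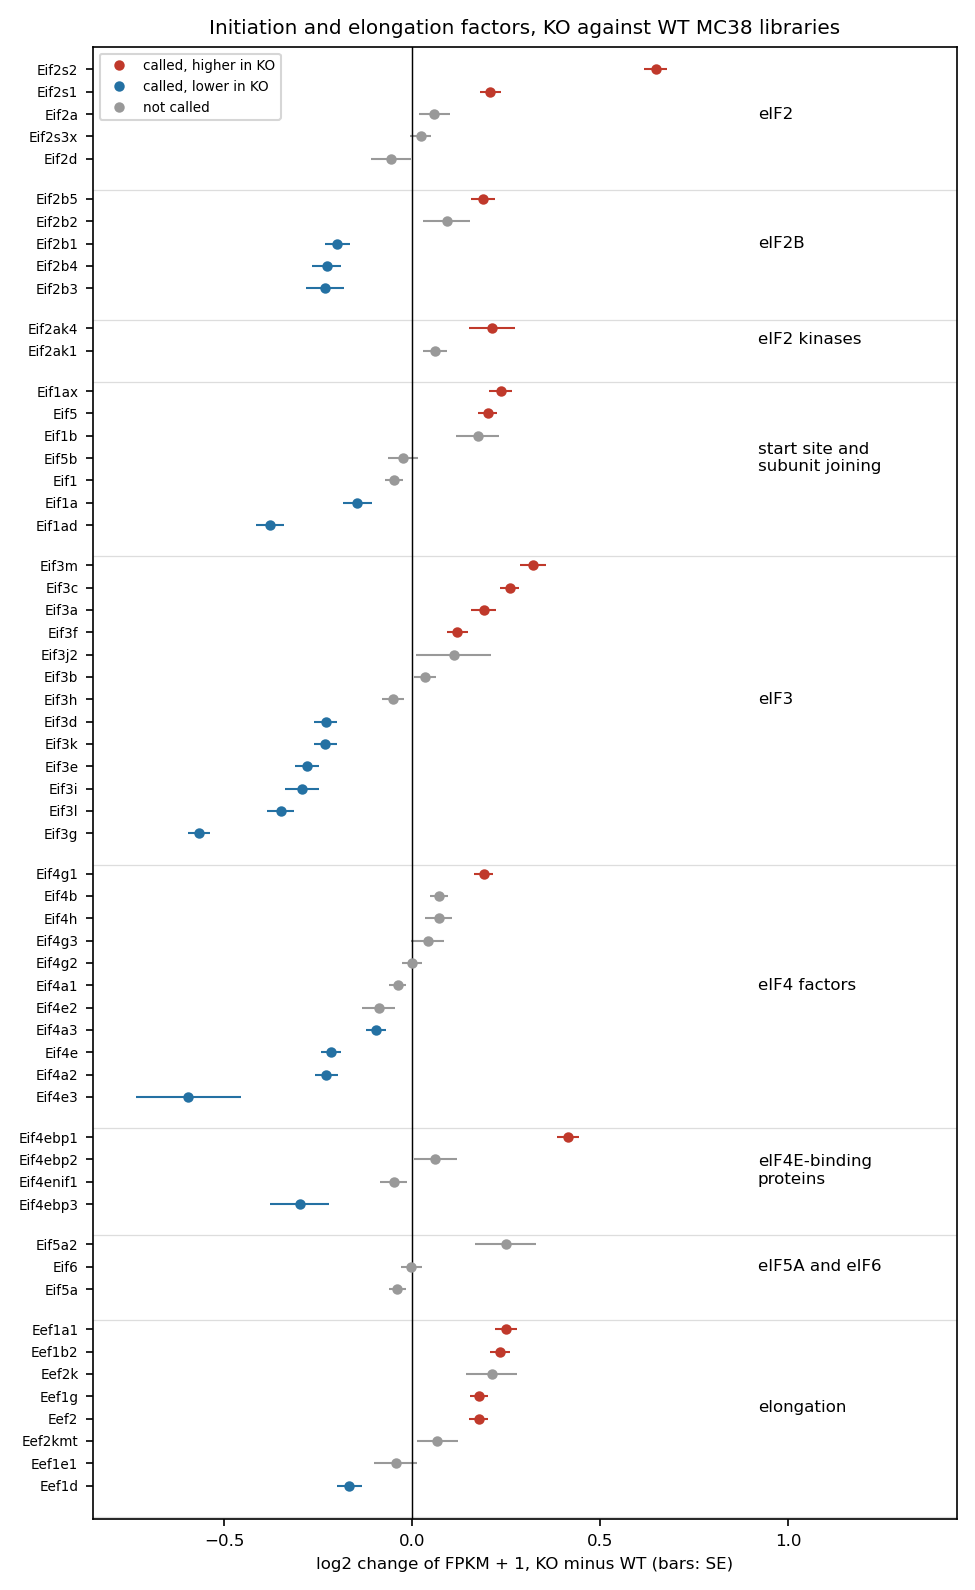
Log2 change of FPKM + 1 (KO minus WT, horizontal axis) with its SE for the tested members other than Eif3j1, grouped by role and sorted within each group. eIF2B, eIF3 and the eIF4 factors each hold members called on both sides of zero, while the called elongation factors lie to the right of zero except Eef1d.

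The factors of start codon choice and subunit joining were also split. Eif5, which triggers GTP hydrolysis by eIF2, was at 139.7 and 140.1 FPKM in the KO-labelled libraries, against 122 and 121 FPKM in the WT-labelled ones, with a log2 change of 0.20 ± 0.026 (limma SE; adjusted p = 0.00316). Replicates of Eif5 nearly coincided within each group, and this call too was lost after subtraction of the median of chromosome 12. Eif1ax, the X-linked eIF1A, was at 397 and 389 FPKM in the KO-labelled libraries, against 341 and 327 FPKM in the WT-labelled ones (log2 change 0.23 ± 0.031, limma SE; adjusted p = 0.00344). Eif1a, its autosomal paralog, was at 54.6 and 51.9 FPKM in the KO-labelled libraries, against 58.4 and 59.7 FPKM in the WT-labelled ones, a log2 change of -0.15 ± 0.039 (limma SE; adjusted p = 0.0295) in the other direction. The call of Eif1a was lost without KO replicate 2, WT replicate 1 or WT replicate 2 (adjusted p = 0.106, 0.0847 and 0.135) and with 2 other settings. The 2 eIF1A genes summed to 452 and 441 FPKM in the libraries labelled KO and to 399 and 387 FPKM in the WT-labelled ones.

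Eif1ad, an eIF1A domain protein, was lower, at 36.8 and 35.2 FPKM in the KO-labelled libraries, against 46.8 and 47.4 FPKM in the WT-labelled ones (log2 change -0.38 ± 0.038, limma SE; adjusted p = 0.00151). It overlaps the more abundant Banf1 on the opposite strand, with 428 identical bases of annotated transcript, so its level is uncertain. Eif1, which keeps the scanning complex open, had the highest mean of this group over the 4 libraries, at 383 and 375 FPKM in the KO-labelled libraries, against 391 and 393 FPKM in the WT-labelled ones, and was not called (-0.049 ± 0.025; adjusted p = 0.161). GENCODE holds 12 processed pseudogenes at least 95% identical to an Eif1 transcript over 200 bases or more, so reads of Eif1 may be shared. Eif1b was not called (0.17 ± 0.058), nor was Eif5b, the GTPase that joins the subunits (-0.025 ± 0.041).

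The subunits of eIF3, the largest initiation factor, were split, with 4 subunit genes called higher, 6 lower and 4 not called of 14 tested. The share called was 71.4%, against 47.6% of all genes tested and 66.3% of those averaging 100 FPKM or more. Those not called include Eif3j1 and Eif3j2, near-identical genes that are also taken as a sum below. Eif3g, an RNA-binding subunit that takes part in scanning, was at 178 and 185 FPKM in the KO-labelled libraries, against 271 and 268 FPKM in the WT-labelled ones. It was lower in both libraries labelled KO, with a log2 change of -0.57 ± 0.03 (limma SE; adjusted p = 0.000247), and lies on chromosome 9, 20894349 to 20898623, minus strand. Its binding partner Eif3i was at 243 and 265 FPKM in the KO-labelled libraries, against 308 and 315 FPKM in the WT-labelled ones, a log2 change of -0.29 ± 0.045 (limma SE; adjusted p = 0.00526). Eif3b, the scaffold that holds eIF3g and eIF3i, was at 371 and 378 FPKM in the KO-labelled libraries, against 372 and 359.8 FPKM in the WT-labelled ones. The Eif3b values overlap between groups (0.035 ± 0.029; adjusted p = 0.361), and the ratio of Eif3g to Eif3b FPKM was 0.480 and 0.488 in the KO-labelled libraries, against 0.729 and 0.744 in the WT-labelled ones.

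Subunits d, e, k and l were lower as well. Eif3l was at 142 and 141 FPKM in the KO-labelled libraries, against 176 and 186 FPKM in the WT-labelled ones, with a log2 change of -0.35 ± 0.036 (limma SE; adjusted p = 0.00153). Eif3k, which pairs with eIF3l at the edge of the complex, was at 208 and 209 FPKM in the KO-labelled libraries, against 239.6 and 250.3 FPKM in the WT-labelled ones (log2 change -0.23 ± 0.031, SE). Eif3e and Eif3d, the subunit that can itself bind the cap of some mRNAs, changed by -0.28 ± 0.032 and -0.23 ± 0.03 (SE; limma, adjusted p = 0.00212 and 0.00316). Eif3h was not called (-0.051 ± 0.029).

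Subunits a, c, f and m were higher. Eif3m was at 192 and 188 FPKM in the KO-labelled libraries, against 156 and 148 FPKM in the WT-labelled ones, a log2 change of 0.32 ± 0.035 (limma SE; adjusted p = 0.00189), and lost its call after subtraction of the median of chromosome 2. Eif3c, part of the core with eIF3a, was at 277 and 274 FPKM in the KO-labelled libraries, against 231 and 229 FPKM in the WT-labelled ones (log2 change 0.26 ± 0.025, limma SE; adjusted p = 0.00129). The core subunit Eif3a changed by 0.19 ± 0.033 and Eif3f by 0.12 ± 0.028 (SE; limma, adjusted p = 0.00747 and 0.0205). The call of Eif3f was lost in 7 of 16 alternatives (adjusted p from 0.058 to 0.217), including the omission of each library in turn. Over the 12 subunit genes without eIF3j, the median level was 200.1 and 200.8 FPKM in the libraries labelled KO and 233 and 233 FPKM in the WT-labelled ones. The sum over these genes differed less, at 2522 and 2573 FPKM in the KO-labelled libraries, against 2734 and 2748 FPKM in the WT-labelled ones. Their coefficient of variation stayed between 32.7% and 34.2% in all 4 libraries.

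**Figure D3:**
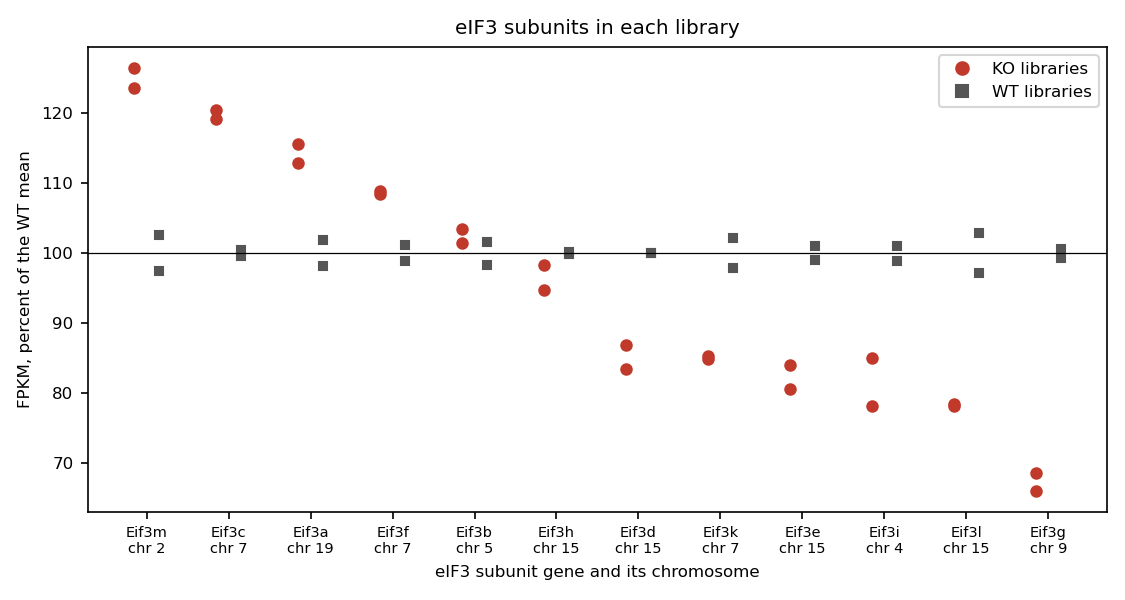
FPKM of each eIF3 subunit gene other than the eIF3j pair in every library, as a percent of its mean in the 2 WT libraries (vertical axis), with the chromosome of each gene. The KO-labelled libraries lie above both WT-labelled ones for Eif3m, Eif3c, Eif3a and Eif3f and below both for Eif3h, Eif3d, Eif3k, Eif3e, Eif3i, Eif3l and Eif3g.

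The j subunit is encoded by Eif3j1 and Eif3j2, whose annotated transcripts are 99.4% identical over 2379 bases. Eif3j1 was at 31.6 and 0.167 FPKM in the KO-labelled libraries, against 0.149 and 0.143 FPKM in the WT-labelled ones. Only KO replicate 1 was high, Eif3j1 passed the filter on low values through that library alone, and it was not called (2.43 ± 1.5; adjusted p = 0.228), although it was without KO replicate 2 (4.83; adjusted p = 0.000548). Eif3j2 was at 103 and 127 FPKM in the KO-labelled libraries, against 107 and 104 FPKM in the WT-labelled ones, with KO replicate 1 the lowest and KO replicate 2 the highest. The sum of the pair was 134 and 128 FPKM in the KO-labelled libraries, against 107 and 105 FPKM in the WT-labelled ones. Tested as 1 feature, a choice made after the values were seen, the sum had a log2 change of 0.30 ± 0.037 (limma SE; adjusted p = 0.00255). Reads of near-identical copies cannot be assigned with certainty, so neither gene's value can be read alone.

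In the cap-binding machinery the cap-binding subunit was lower, the main scaffold higher and the main helicase not called. Eif4e, which binds the cap, was at 113 and 114 FPKM in the KO-labelled libraries, against 133 and 131 FPKM in the WT-labelled ones. It was lower in both libraries labelled KO, with a log2 change of -0.22 ± 0.027 (limma SE; adjusted p = 0.00289). Eif4g1, the scaffold, was at 247 and 247 FPKM in the KO-labelled libraries, against 218 and 215 FPKM in the WT-labelled ones (log2 change 0.19 ± 0.025, limma SE; adjusted p = 0.00325). Eif4a1, the helicase and the fourth most abundant member, was at 1081 and 1079.8 FPKM in the KO-labelled libraries, against 1100.3 and 1119 FPKM in the WT-labelled ones, and was not called (-0.038 ± 0.023; adjusted p = 0.225). With values rescaled to a common sum Eif4a1 was called lower (-0.11; adjusted p = 0.0227). The ratio of Eif4g1 to Eif4e FPKM was 2.18 and 2.16 in the KO-labelled libraries, against 1.64 and 1.64 in the WT-labelled ones.

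Of the paralogs and cofactors, Eif4a2, Eif4a3 and Eif4e3 were called, all lower. Eif4a2, a helicase close to eIF4A1, was at 53.3 and 53.1 FPKM in the KO-labelled libraries, against 62.4 and 62.6 FPKM in the WT-labelled ones, a log2 change of -0.23 ± 0.03 (limma SE; adjusted p = 0.00332). Eif4a3, the helicase of the exon junction complex, changed by -0.097 ± 0.027 (adjusted p = 0.0326 by limma). Its call was lost in 6 of 16 alternatives, the omission of each library among them (adjusted p from 0.0813 to 0.986), and its change was 0.0008 after subtraction of the chromosome median. Eif4g2 (DAP5), a scaffold that does not bind eIF4E, was at 195 and 198 FPKM in the KO-labelled libraries, against 196 and 198 FPKM in the WT-labelled ones, and Eif4g3 changed by 0.041 ± 0.044; neither was called. The helicase cofactors Eif4b and Eif4h were not called (0.071 ± 0.024 and 0.070 ± 0.035), nor was Eif4e2, a cap-binding repressor (-0.089 ± 0.044). Eif4e3 was at 1.01 and 0.608 FPKM in the KO-labelled libraries, against 1.64 and 1.80 FPKM in the WT-labelled ones, about 25 and 17 fragments against 60 and 51. Its log2 change of -0.60 ± 0.14 was called (adjusted p = 0.0216), but not without WT replicate 1 (adjusted p = 0.0625) or WT replicate 2 (adjusted p = 0.0907). Eif4e1b, an oocyte form, was listed at 0 in every library.

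Eif4ebp1, the eIF4E-binding protein that holds eIF4E away from eIF4G when it is not phosphorylated, was higher in the libraries labelled KO. It was at 302 and 312 FPKM in the KO-labelled libraries, against 229 and 232 FPKM in the WT-labelled ones, with no overlap. The log2 change was 0.41 ± 0.029 (limma SE; adjusted p = 0.000552), and the gene lies on chromosome 8, 27260329 to 27276674, plus strand. Together with the lower Eif4e this gave a ratio of Eif4ebp1 to Eif4e FPKM of 2.67 and 2.73 in the KO-labelled libraries, against 1.72 and 1.76 in the WT-labelled ones. Eif4ebp2, its paralog, was at 31.9 and 34.4 FPKM in the KO-labelled libraries, against 30.6 and 32.9 FPKM in the WT-labelled ones, and the values overlap (0.061 ± 0.057; adjusted p = 0.41). Eif4ebp3 was at 5.05 and 5.48 FPKM in the KO-labelled libraries, against 7.04 and 6.39 FPKM in the WT-labelled ones, a log2 change of -0.30 ± 0.078 (limma SE; adjusted p = 0.0276), and was not called without KO replicate 1, WT replicate 1 or WT replicate 2 (adjusted p = 0.102, 0.136 and 0.0581). Nor was it called with no filter or with the replicate number as a block (adjusted p = 0.0582 and 0.06), and 504 bases of its transcript are identical to the annotated gene AC115631.1, so its reads may be shared. Summed, the 3 genes stood to Eif4e at 2.99 and 3.08 in the KO-labelled libraries, against 2.00 and 2.06 in the WT-labelled ones. Eif4enif1 (4E-T), which carries eIF4E into the nucleus and P-bodies, was not called (-0.050 ± 0.036).

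**Figure D4:**
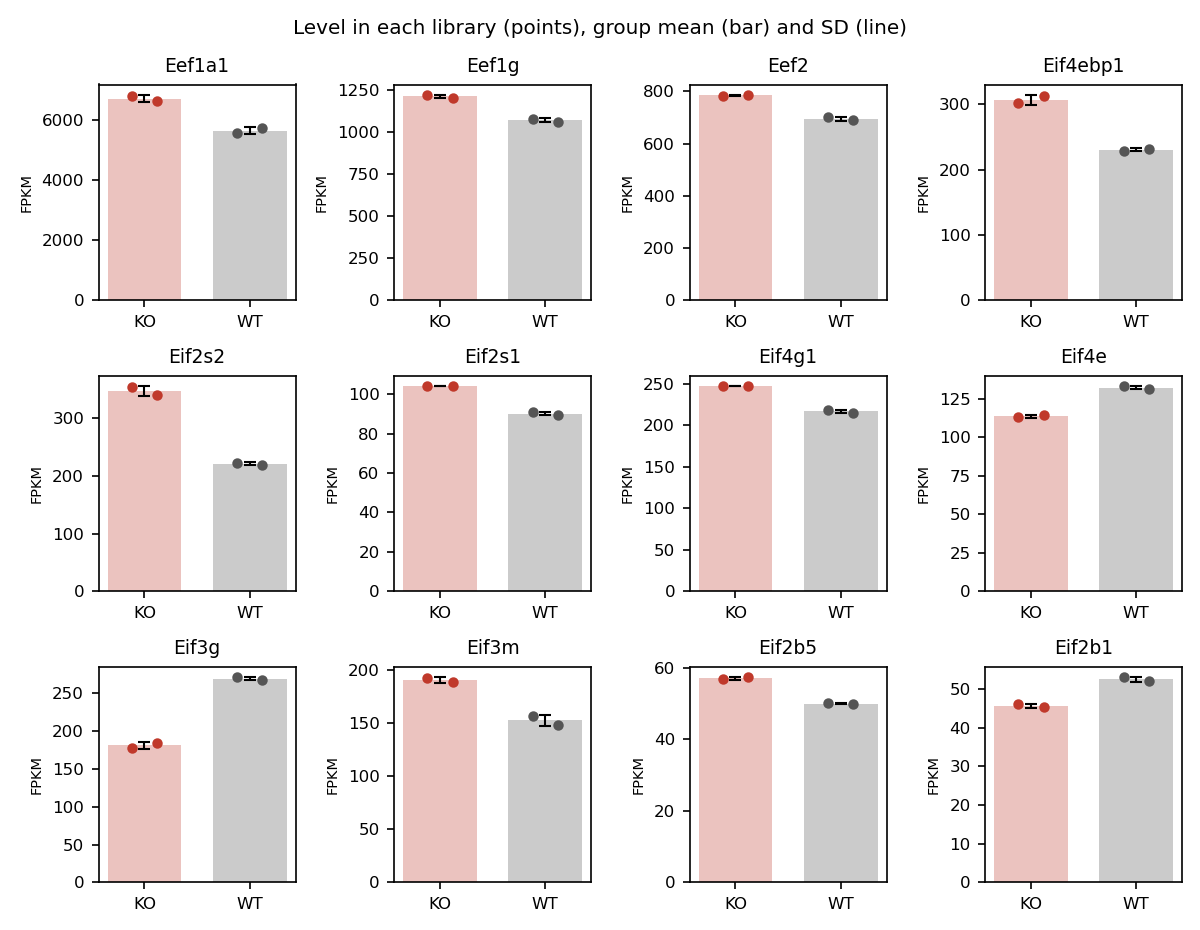
FPKM in each library (points) with the group mean (bar, from 0) and SD (line, n = 2) for 12 members, the libraries labelled KO left of those labelled WT. Eif2s2 and Eif4ebp1 stand clearly higher, Eif3g clearly lower, and the other panels show smaller shifts without overlap of the groups.

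The member with the highest level was Eef1a1, which encodes eEF1A. It was at 6800.1 and 6623 FPKM in the KO-labelled libraries, against 5557 and 5730.4 FPKM in the WT-labelled ones, the highest of all symbols in both libraries labelled KO and at rank 2 and 3 in the WT-labelled ones. It made up 36.1% and 35.5% of the members' summed FPKM in the KO-labelled libraries, against 32.2% and 32.8% in the WT-labelled ones. Its log2 change was 0.25 ± 0.029 (limma SE; adjusted p = 0.00216). Without Eef1a1 the members summed to 12016 and 12028 FPKM in the libraries labelled KO and to 11728 and 11720.0 FPKM in the WT-labelled ones. Eef1a2, the muscle and neuron form of eEF1A, was at 0 in both libraries labelled WT and in KO replicate 1, and at 0.0476 FPKM, about 1 fragment, in KO replicate 2.

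The exchange complex of eEF1A did not move as 1 unit. Its subunits Eef1b2 and Eef1g were higher, Eef1b2 at 398 and 396 FPKM in the KO-labelled libraries, against 343 and 332 FPKM in the WT-labelled ones. Eef1g was at 1220.2 and 1207 FPKM in the KO-labelled libraries, against 1082 and 1063 FPKM in the WT-labelled ones. The log2 changes were 0.23 ± 0.027 and 0.18 ± 0.024 (SE; limma, adjusted p = 0.00229 and 0.00351). Eef1d, the other exchange subunit, was lower, at 257 and 259 FPKM in the KO-labelled libraries, against 297 and 283 FPKM in the WT-labelled ones, a log2 change of -0.17 ± 0.033 (limma SE; adjusted p = 0.0112). That call was lost without KO replicate 1 (adjusted p = 0.0517) and after subtraction of the median of chromosome 15 (adjusted p = 0.2). The ratio of Eef1g to Eef1d FPKM was 4.75 and 4.66 in the KO-labelled libraries, against 3.64 and 3.76 in the WT-labelled ones.

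Eef2, the translocation factor, was at 783 and 786 FPKM in the KO-labelled libraries, against 700.2 and 688 FPKM in the WT-labelled ones, with a log2 change of 0.18 ± 0.024 (limma SE; adjusted p = 0.0035). Eef1a1, Eef1b2, Eef1g and Eef2 were called higher under all 4 alternative scalings between libraries. Eef2k, the kinase that inactivates eEF2, was at 5.68 and 5.44 FPKM in the KO-labelled libraries, against 4.75 and 4.59 FPKM in the WT-labelled ones, no overlap but just short of the threshold (0.21 ± 0.068; adjusted p = 0.0509). Eef2kmt, which methylates eEF2, and Eef1e1, a scaffold of the tRNA synthetase complex, were not called (0.067 ± 0.054 and -0.044 ± 0.058). GENCODE holds 9 processed pseudogenes at least 95% identical to Eef1a1 over 200 bases or more and 4 for Eef1g, so part of their reads may be shared.

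Eif5a, the factor that carries hypusine and eases peptide bond formation, was the second most abundant member, at 1506 and 1495 FPKM in the KO-labelled libraries, against 1535 and 1549.9 FPKM in the WT-labelled ones, and was not called (-0.040 ± 0.023; adjusted p = 0.203). With values rescaled to a common sum it was called lower (-0.11; adjusted p = 0.021). Its paralog Eif5a2 was at 8.39 and 9.57 FPKM in the KO-labelled libraries, against 7.11 and 7.66 FPKM in the WT-labelled ones, no overlap and a log2 change of 0.25 ± 0.081 short of the threshold (adjusted p = 0.0541 by limma). Eif6, which keeps free large subunits from joining, was at 240.1 and 248 FPKM in the KO-labelled libraries, against 244 and 245 FPKM in the WT-labelled ones, with overlapping groups (-0.0030 ± 0.028; adjusted p = 0.939).

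The members' changes were set beside those of their chromosomal neighbours, because whole chromosomes differed between the groups. Among genes tested, the median log2 change was 0.23 on chromosome 2, 0.15 on chromosome 12, -0.12 on chromosome 13, -0.11 on chromosome 15 and -0.098 on chromosome 11, and between -0.046 and 0.060 on the others. On chromosome 2, 3 of 5 members tested were called higher and 0 lower, where 54.8% of all genes there were higher. On chromosome 15, 4 of 6 members were called lower and 0 higher, where 39.5% of all genes there were lower; these are Eif3d, Eif3e, Eif3l and Eef1d. Of 3 members tested on chromosome 12, 2 (Eif2s1 and Eif5) were called higher and 0 lower, where 41.8% of all genes there were higher. On chromosome 11, 1 of 5 members was called lower and 0 higher, where 35.7% of all genes there were lower. Chromosome 13 held 1 member tested, which was not called, where 40.6% of all genes there were lower.

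Some members moved as far as the genes around them and others did not. The tested genes within 2 Mb of Eif3m had a median log2 change of 0.32 over 16 genes, against 0.32 for Eif3m. For Eif3e the neighbours' median was -0.25 over 8 genes, against -0.28 for Eif3e, and for Eef1d it was -0.23 over 55 genes, against -0.17. Eif2s2 exceeded its neighbours, at 0.65 against 0.17 over 50 genes, as did Eif4ebp1, at 0.41 against -0.069 over 20 genes. Eif3g, at -0.57, lay below its own, at -0.094 over 55 genes. Eif6 lies near Eif2s2 on chromosome 2, and its neighbours' median was 0.17 over 51 genes while Eif6 itself was at -0.0030.

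With each gene centred on the median of its chromosome, a choice made after the values were seen, 14 members were called higher and 16 lower. The calls of Eif2s1, Eif5, Eif3m and Eef1d were lost (limma, adjusted p = 0.158, 0.176, 0.0876 and 0.2), and so were those of Eif2ak4 and Eif4a3. Eif6 was called lower (-0.23; adjusted p = 0.00289) and Eif4b and Eif5a2 higher (0.18 and 0.29; adjusted p = 0.0039 and 0.0365). Eif2s2, Eif3g and Eif4ebp1 stood at 0.42, -0.57 and 0.40. The part of the chromosome in the members' changes was not tested beyond this.

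**Figure D5:**
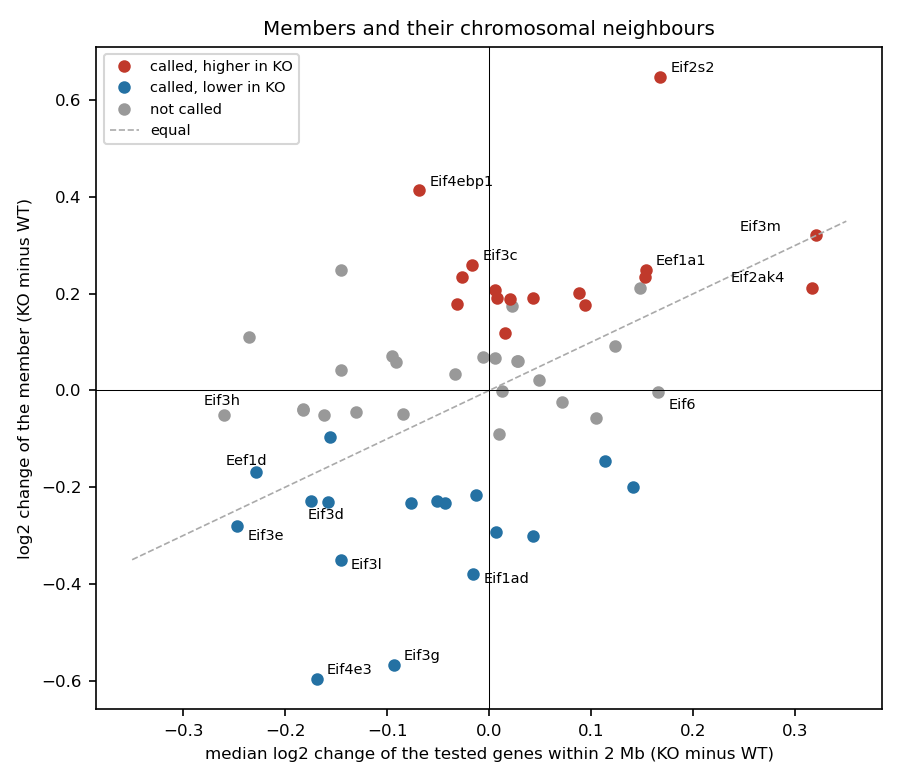
Log2 change of each tested member other than Eif3j1 (vertical axis, KO minus WT) against the median log2 change of the tested genes within 2 Mb of it (horizontal axis); the dashed line marks equal values. Eif3m and Eif3e lie near the line, while Eif2s2 and Eif4ebp1 lie above it and Eif3g below it.

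Partners of these factors were read from a list of 59 symbols, of which 58 were listed and 57 tested. Of these, 14 were called higher and 12 lower (45.6%, against 47.6% of all genes tested), and with values rescaled to a common sum 8 were higher and 20 lower. The largest called changes were those of Mrrf, a mitochondrial ribosome recycling factor on chromosome 2 (0.46 ± 0.07), Dph6, which completes the diphthamide of eEF2 and lies on chromosome 2 (0.41 ± 0.052), Dhx29, a helicase that helps scanning (-0.48 ± 0.05), and Pelo, a ribosome rescue factor (-0.42 ± 0.078). Dhx29 and Pelo both lie on chromosome 13. Centred on the median of their chromosomes, Mrrf and Dph6 stood at 0.23 and 0.18, and Dhx29 and Pelo at -0.36 and -0.29. The call of Pelo was lost without WT replicate 1 (adjusted p = 0.0593).

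Of 10 genes tested around eIF2 phosphorylation, 5 were called higher and 2 lower, where 24.4% and 23.3% of all genes tested were. All 5 that were higher encode subunits of the eIF2 phosphatase, and with values rescaled to a common sum, with or without small RNA symbols, the calls of Ppp1r15a, Ppp1cb and Ppp1cc were lost. Its regulatory subunit Ppp1r15b was at 38.6 and 37.7 FPKM in the KO-labelled libraries, against 32.0 and 32.8 FPKM in the WT-labelled ones (0.23 ± 0.037, SE), and the stress-induced Ppp1r15a changed by 0.31 ± 0.094, a call lost without KO replicate 1, KO replicate 2 or WT replicate 2 and in 9 of 16 alternatives altogether (adjusted p of 0.0527 to 0.18). The catalytic subunits Ppp1ca, Ppp1cb and Ppp1cc, which serve many other phosphatases, changed by 0.20, 0.16 and 0.096. The call of Ppp1cb was lost without WT replicate 2 (adjusted p = 0.059) and in both rescalings (0.090 and 0.086; adjusted p = 0.0855 and 0.064), and Ppp1cc lost its call in 8 alternatives, 4 of them the omission of a library (adjusted p of 0.0513 to 0.469 over the 8). The kinase PKR, encoded by Eif2ak2, was lower, at 29.3 and 28.6 FPKM in the KO-labelled libraries, against 35.6 and 35.3 FPKM in the WT-labelled ones (-0.28 ± 0.036, SE; limma, adjusted p = 0.00305). Dnajc3, an inhibitor of these kinases, was lower too (-0.14), a call lost whichever library was left out (highest adjusted p = 0.148), and PERK (Eif2ak3) was not called (0.079 ± 0.082).

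Among cap and poly(A) partners, the poly(A)-binding protein Pabpc1, which joins the ends of the mRNA through eIF4G, was lower, at 724 and 714 FPKM in the KO-labelled libraries, against 850.3 and 873 FPKM in the WT-labelled ones (-0.26 ± 0.026, SE; limma, adjusted p = 0.00145). Larp1, which represses mRNAs of the translation machinery, and Pabpc4 were lower too (-0.21 ± 0.027 and -0.16 ± 0.036), the Pabpc4 call being lost without KO replicate 1 or WT replicate 2 (adjusted p = 0.0676 and 0.0891). Cyfip1, an eIF4E-binding repressor, was higher (0.34 ± 0.037), and Pdcd4, an inhibitor of eIF4A, was not called (-0.41 ± 0.14; adjusted p = 0.0574). Mknk2, a kinase of eIF4E, was at 25.4 and 25.0 FPKM in the KO-labelled libraries, against 20.9 and 20.8 FPKM in the WT-labelled ones (0.26 ± 0.039, SE; adjusted p = 0.00489 by limma), and Mtor was lower (-0.29 ± 0.055), a call lost without WT replicate 2 (adjusted p = 0.0673). Of the release factors Etf1 and Gspt1 neither was called (0.054 ± 0.038 and 0.048 ± 0.03).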

How the data were processed

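RNA from 4 MC38 libraries was extracted with an RNeasy kit and made into stranded, poly(A)-selected TruSeq libraries, per the labels' protocols. Cufflinks 2.2.1, TopHat2 2.0.13, SAMtools 0.1.19, build mm10 and Bowtie2 2.2.3 are named in the submitters' processing notes, while settings, gene annotation and strand handling are not given in the sources used here. Values are FPKM per gene symbol as the authors deposited them, which correct for length and depth but not for composition; their sums were 638120 and 629442 in the libraries labelled KO and 600844 and 609178 in the WT-labelled ones.

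Depth was estimated from genes at or below 0.1 FPKM, of whose ratios between libraries 90.8% to 91.9% fell within 1% of whole-number ratios (up to 6), and from genes with 1 annotated transcript of at least 3000 bases. It is uncorrected for fragment length. Whole counts could not be recovered per gene, so no count model was used.

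Values were tested as log2(FPKM + 1) with limma 3.58.1 in R 4.3.3 (trend, no block, two-sided, Benjamini-Hochberg over all genes tested) for symbols with a mean of at least 1 FPKM. The pseudocount understates changes of low genes. Errors are SE for log2 changes and SD (n = 2) in the plot of levels. The procedure was tested on simulated data with independent noise and few changed genes. That setting differs from these data, where 47.6% of all genes tested were called and whole chromosomes differed. The simulation therefore cannot show how far these calls hold. Positions are from GENCODE M21 (GRCm38, which mm10 denotes), promoter windows from RefSeq, and near-identical transcripts from blastn 2.17.0.

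Members and lists were chosen with earlier results of these data known. Members were given in every library where called, without overlap, at 5 FPKM or more and with an absolute log2 change of at least 0.4, or where fixed by role; partner genes were named at that change. Other genes were named after their values were seen.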

Additional observations from a re-analysis of the deposited data

How the results depend on the processing

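Over pseudocounts of 0.1 and 0.5, no filter or a filter of 5 FPKM, 4 scalings, robust or untrended moderation, the replicate block, the omission of each library and centring by chromosome, the members called ranged from 14 to 19 higher and from 12 to 23 lower, within 1.5 times the reported 16 and 17. Leaving out 1 library gave 14 to 16 members higher and 12 to 15 lower. For all genes it gave 1666 to 2007 higher and 1550 to 1985 lower, the fewest without WT replicate 2 (1666 and 1550) and next without WT replicate 1 (1733 and 1592). The partner genes, 14 higher and 12 lower, came to 9 to 11 higher and 6 to 10 lower without 1 library. They came to 8 and 20 with a common sum, 7 and 20 with a common sum without small RNA symbols, 9 higher without the trend and 9 higher under the replicate block. Libraries with 1 sample left in a group were taken to vary like the rest.

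The shared replicate numbers are not known to pair the libraries; deviations of the same-numbered libraries correlated at 0.14 over 10827 genes. With the replicate number as a block, 17 members were higher and 15 lower, and 2369 and 2304 of all genes. Signs turned for members that were not called, apart from Eif2ak4 and Eif4a3: with a common sum Eif2s3x (-0.045), Eif2a (-0.0065), Eif2ak1 (-0.0048), Eif3b (-0.032), Eif4g3 (-0.023), Eif4ebp2 (-0.0039); without small RNA symbols Eif2s3x (-0.049), Eif2a (-0.011), Eif2ak1 (-0.0088), Eif3b (-0.036), Eif4h (-0.0008), Eif4g3 (-0.027), Eif4ebp2 (-0.0080); with the upper quartile Eif4g2 (0.0069), Eif6 (0.0051); and by chromosome centring Eif1 (0.049), Eif2b2 (-0.059), Eif2ak4 (-0.017), Eif3h (0.059), Eif4a1 (0.059), Eif4a3 (0.0008), Eif4enif1 (0.048), Eif5a (0.058), Eef1e1 (0.079). Without 1 library, the log2 change ranged from -0.12 to 0.035 for Eef1e1, from -0.045 to 0.27 for Eif3j2, from -0.014 to 0.011 for Eif4g2, from -0.060 to 0.010 for Eif5b, from -0.025 to 0.019 for Eif6. The causes were not tested. Depth limits Eif4e3 and Eef1a2, and shared reads limit Eif3j1 and Eif3j2. Other members also have near-identical processed pseudogenes, so their reads may be shared too. Among them are Eif2s2 (99.5% over 992 bases), Eif2s3x (100% over 1350), Eif4a1 (99.9% over 1218), Eif3m (98.5% over 1125) and Eif4e (98.6% over 654).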

Other observations

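Of the processed pseudogenes close to Eef1a1, Gm6548 is also listed in the deposited tables and is 96.7% identical to an Eef1a1 transcript over 1166 bases. Gm6548 had 18.1 and 20.8 FPKM in the KO-labelled libraries, against 32.5 and 32.3 FPKM in the WT-labelled ones, while Eef1a1 was higher in the libraries labelled KO. Banf1, which overlaps Eif1ad on the opposite strand, had 371 and 384 FPKM in the libraries labelled KO and 349 and 350.2 FPKM in the WT-labelled ones, while Eif1ad was lower in the libraries labelled KO.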
